A study of Mus musculus with 4 samples.

Results

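The Schlafen (Slfn) family was described in CD4+CD8+ double-positive (DP) cells of normal mouse thymus and of Notch1-IC tumours. Its members were all probe sets of the Affymetrix mouse array used whose platform gene symbol is Slfn1, Slfn2, Slfn3, Slfn4, Slfn5, Slfn8 or Slfn9. A probe set is a group of short probes for the same transcript. There were 12 such probe sets among 45037 that are not controls, of which 11 name a single Schlafen gene and 1 names Slfn3 and Slfn4 together. Slfn5 had 3 probe sets, Slfn1 and Slfn9 had 2 each, and Slfn2 and Slfn8 had 1 each. Slfn3 and Slfn4 had 1 of their own each, besides the shared one. All 7 genes matched the RefSeq gene table by Entrez number and lie on chromosome 11.

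Schlafen proteins are named, after the German for sleep, for the sleep-like arrest that their founding member, Slfn1, imposed on T cells. In mice they are sorted by length. Slfn1 and Slfn2 are short forms, Slfn3 and Slfn4 are intermediate, and Slfn5, Slfn8 and Slfn9 are long forms that also carry a helicase-like domain. The family is known for roles in growth arrest and quiescence of lymphocytes, for induction by interferon and, for some members, for binding or cleaving transfer RNA.

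The series holds 4 arrays of C57BL/6 background. The normal group is 2 arrays of DP cells from the thymus of wild-type (WT) mice, and the tumour group is 2 arrays of DP cells from peripheral tumours (thymoma) with the genotype label T-ALL (T-cell acute lymphoblastic leukaemia), which over-express Notch1-IC, the intracellular active part of the Notch1 receptor. The sample type label names tumour cells for the 2 normal arrays as well, against their titles, sources and genotypes. The sources used here give neither the promoter or vector of the Notch1-IC nor the age and sex of the mice. They also do not state whether the 2 arrays of a group stem from different mice, so a p-value reflects the spread between 2 arrays that may be technical repeats. Tissue site (thymus or periphery) and any scan batch cannot be told apart from tumour and normal.

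Markers of the DP stage were detected in both groups at different levels. Of 15 measured DP thymocyte markers, 15 lay above background on all arrays, 12 fell in the tumour cells and 2 rose (1 after spike scaling, described below, and 1 without normal replicate 1 or tumour replicate 2). The log2 difference was -2.75 for Cd8a, -2.19 for Cd8b1, -2.09 for Cd4, the co-receptor chains, and -1.92 for Rag2, a recombinase subunit. The 2 that rose were Ptcra (1.72) and Tcf12 (0.40). The background level of an array, the highest of 27 control probe sets for absent bacterial genes, lay between 12.3 and 17.8 intensity units. Between 51.0% and 59.0% of probe sets were above it. The ratio of 3' to 5' probe sets for beta-actin, a sign of RNA integrity and labelling, was 1.28 and 1.20 in the normal arrays and 2.46 and 2.53 in the tumour arrays. Its part in the results below was not tested. The number of arrays limits the precision of every value.

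The promoters of the family are shown first because Slfn8 and Slfn9, with much of their upstream sequence in common, differed in their change on Slfn9 probe set 1436472_at. Sequences are those of RefSeq on GRCm38.p6, 5′ to 3′ in the direction of the gene, over the 250 bases before the annotated start. The whole upstream stretch is printed for Slfn9 (chr11:82991831-82992080, minus strand) and Slfn8 (chr11:83020811-83021060, minus strand). Capitals mark a match to the core of the interferon-stimulated response element, a pair of GAAA half-sites with any 2 bases between them, here on the opposite strand as a pair of TTTC half-sites.
Slfn9: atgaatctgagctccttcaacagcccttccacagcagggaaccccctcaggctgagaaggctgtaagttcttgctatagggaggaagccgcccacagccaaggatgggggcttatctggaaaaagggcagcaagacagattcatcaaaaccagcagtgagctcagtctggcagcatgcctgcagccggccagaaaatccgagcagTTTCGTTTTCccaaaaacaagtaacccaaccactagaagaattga
Slfn8: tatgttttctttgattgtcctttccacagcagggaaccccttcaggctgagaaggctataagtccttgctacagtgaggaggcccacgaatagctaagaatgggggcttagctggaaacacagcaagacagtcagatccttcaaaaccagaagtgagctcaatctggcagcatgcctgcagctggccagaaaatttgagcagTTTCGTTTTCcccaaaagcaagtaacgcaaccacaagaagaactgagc

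In a global alignment of these stretches, 204 of 255 columns were identical, against 42.5% to 49.1% of columns in the other pairs of family members. The match lay 45 to 36 bases before the start in Slfn9 and 48 to 39 bases before it in Slfn8. A second annotated start of Slfn8 overlaps this stretch. Slfn5 held a match on the other strand, 155 to 146 bases before its start, shown with its surroundings (chr11:82951927-82951976, plus strand).
Slfn5: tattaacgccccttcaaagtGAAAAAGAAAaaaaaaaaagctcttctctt

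Thus 3 of the 7 genes had a match to this core, which was found on either strand in 2.98% of 32851 promoters of the same length. The matches of Slfn8 and Slfn9 are the same letters in largely identical windows, so they are not independent. That of Slfn5 runs into a stretch of A. The short and intermediate members had no match in this window. They carried another stretch in common, ACTTCCTGG (CCAGGAAGT on the opposite strand). This block was picked from these sequences as the longest stretch found in all of their windows, so its presence in them was fixed by that choice. It was found in 0.700% of the same promoters, a share that gives no measure of enrichment in the members it was picked from. It is marked with capitals below for Slfn1 (chr11:83116726-83116774, plus strand), Slfn2 (chr11:83065037-83065085, plus strand), Slfn4 (chr11:83175093-83175141, plus strand) and Slfn3 (chr11:83191268-83191316, plus strand).
Slfn1: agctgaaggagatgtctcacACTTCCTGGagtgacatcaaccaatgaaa
Slfn2: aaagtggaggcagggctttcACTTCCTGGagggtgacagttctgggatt
Slfn4: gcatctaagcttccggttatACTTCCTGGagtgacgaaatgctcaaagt
Slfn3: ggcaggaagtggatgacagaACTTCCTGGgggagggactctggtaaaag

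The block lay 74 to 66, 55 to 47, 73 to 65 and 42 to 34 bases before the start of these genes, in the order shown. No promoter held both motifs. Of the other motifs searched on both strands, the family promoters held 0 matches to the gamma-activated site TTCNNNGAA (7.02% of all promoters), 0 to the RBPJ site GTGGGAA, or TTCCCAC (5.42%), through which Notch acts, and 0 to the Myc E-box CACGTG (6.02%). These counts describe letters in this window only.

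The comparison of tumour with normal DP cells asked which Schlafen transcripts differ in Notch1-driven cells. Slfn2 rose by 1.61-fold and Slfn9, on probe set 1436472_at, by 4.74-fold in the tumour cells. The other Slfn9 probe set (1458803_at) differed by 1.36-fold, with overlapping groups. The probe set shared by Slfn3 and Slfn4 rose from background. Slfn8, the neighbour of Slfn9, showed no detectable change. Of the 12 probe sets, 0 were called lower, though 2 had negative differences. In limma's moderated test (variance prior following the level, robust), adjusted by Benjamini-Hochberg over all 45037 probe sets, 3 of 12 Schlafen probe sets were higher in the tumour arrays at an adjusted p below 0.05, where 11.3% of all probe sets were higher and 11.5% lower (22.8% called in all). At an unadjusted p below 0.05, 7 of the 12 were higher and 0 lower, where 15.8% of all probe sets were higher and 16.4% lower, and limma with its default prior called 0 of the 12 and 0 of all probe sets. The arrays of the groups did not overlap for 9 of the 12, each higher in tumour. Over all probe sets 56.7% did not overlap, higher and lower ones counted together, and no share by direction was computed. The median log2 difference was 0.84 over the 12 and -0.02 over all probe sets. Of the 12, 4 read below background on both normal arrays and 1 on all 4 arrays, so the size of these differences is uncertain. Genes with several probe sets count more than once in the median of the 12. In bulk RNA, a different number of cells of a type and a different amount of RNA per cell cannot be told apart.

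**Figure D1:**
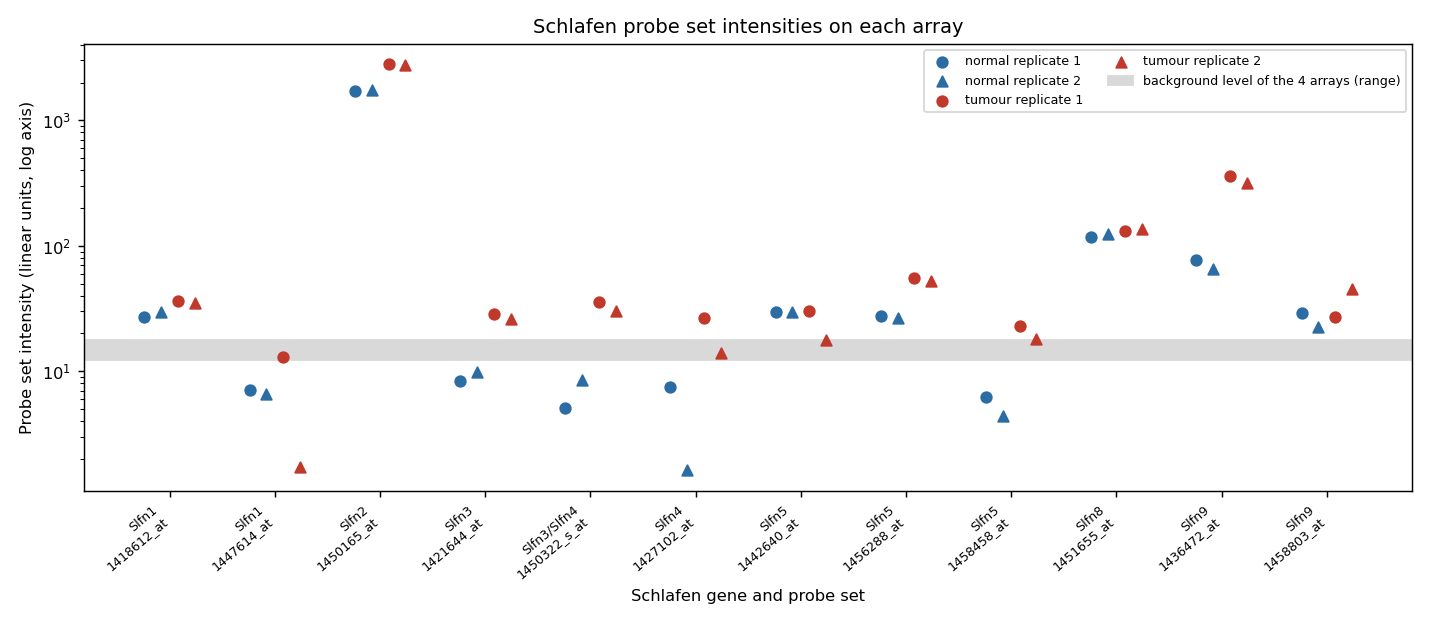
Intensity of each Schlafen probe set on each of the 4 arrays (log axis, intensity units as deposited), with circles for replicate 1, triangles for replicate 2, blue for normal and red for tumour. The grey band spans the background levels of the arrays, 12.3 to 17.8, and 4 probe sets lie below background on the normal arrays and above it on the tumour arrays.

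Of the 12 probe sets, 7 were above background on all 4 arrays, 4 on the tumour arrays only and 1 on no array. No filter on low values was applied, so all 12 were tested.

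Among the short forms, Slfn2 is required for the quiescence of T cells and monocytes in mice. Its probe set (1450165_at) read 1723 and 1739 in the normal arrays and 2795 and 2777 in the tumour arrays. Both tumour arrays lay above both normal arrays, and arrays of a group differed by far less than the groups did. The log2 difference was 0.69 ± 0.067 (SE, n = 2 arrays per group), with a limma adjusted p of 6.09e-05 and a 95% confidence interval of 0.53 to 0.84. After scaling to the bacterial spike controls, which lay 0.60 (log2) higher in the tumour arrays, the difference was 0.09 and did not pass (limma adjusted p = 0.415). That scaling lowers every probe set by the same 0.60, and moved the median of all probe sets from -0.02 to -0.63, so that against the median of all probe sets Slfn2 remained higher by the same amount. Limma with the default prior gave an adjusted p of 0.149.

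Slfn1, the founding member, which slowed thymocyte growth when expressed in transgenic mice, did not pass the test. Probe set 1418612_at read 26.8 and 29.7 in the normal arrays and 36.4 and 34.8 in the tumour arrays, all above background. The groups did not overlap, but the log2 difference of 0.33 ± 0.36 (SE, n = 2 arrays per group) did not pass (limma adjusted p = 0.597), and its 95% interval ran from -0.47 to 1.14. It was -0.27 after spike scaling. The other Slfn1 probe set (1447614_at) lay at or below background on all 4 arrays and gives no level.

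The intermediate forms differed from background in the tumour arrays only. Slfn3 has been studied in the differentiation of rodent gut epithelium, and Slfn4 is known from mouse macrophages and other myeloid cells. The probe set that names both genes (1450322_s_at) read 5.13 and 8.54 in the normal arrays, below background, and 35.4 and 30.1 in the tumour arrays. The tumour mean was at least 2.33-fold higher than background in the normal arrays. The limma adjusted p of 0.0249 belongs to the difference between the deposited readings, not to this bound. The class of this probe set may bind several transcripts, so the 2 genes cannot be told apart in it. Its call ended with spike scaling (limma adjusted p = 0.0729) and with the default prior (0.0903). It also ended without normal replicate 1 (0.0907), tumour replicate 1 (0.144) or tumour replicate 2 (0.0985).

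The probe sets specific to each gene read in the same direction without passing. For Slfn3 (1421644_at) the intensities were 8.33 and 9.93 in the normal arrays and 28.6 and 26.0 in the tumour arrays, at least 1.95-fold higher (limma adjusted p = 0.0822). For Slfn4 (1427102_at) they were 7.50 and 1.62 against 26.8 and 13.9, at least 1.38-fold higher (limma adjusted p = 0.149). The second tumour array was barely above its background of 13.3 for Slfn4. Slfn3 passed only when tested over 1 probe set per gene with the default prior (limma adjusted p = 0.0479), an alternative added after seeing the data. Over 1 probe set per gene with the main prior it did not pass (0.067).

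Markers of myeloid cells, in which Slfn4 is known, rose in the same arrays. Of 18 macrophage markers 11 rose and 0 fell (limma; also 11 and 0 at an unadjusted p below 0.05), and their summed intensity was 181 and 224 in the normal arrays and 2581 and 2722 in the tumour arrays. Csf1r, the macrophage growth factor receptor, read 20.5 and 17.9 against 550 and 625, whereas Vsig4 and Marco lay at or below background on all 4 arrays. Higher in the tumour arrays were also the complement chains C1qa, at least 16.3-fold, and C1qc, at least 11.9-fold, and the scavenger receptor Cd163, at least 11.7-fold. The call of C1qc ended without tumour replicate 2 (limma adjusted p = 0.0574). Of 12 neutrophil markers 8 rose and 0 fell (8 and 0 at an unadjusted p below 0.05), with summed intensities of 215 and 276 against 2208 and 2248, and Mmp8 and Cxcr2 lay at or below background on all arrays. S100a8, a calcium-binding protein of neutrophils, differed by 3.72 (log2), the protease Mmp9 by 3.46 and the antimicrobial peptide gene Camp by 3.42, and Ltf, lactoferrin, was at least 2.85-fold higher. Without tumour replicate 1 or tumour replicate 2 the count was 5, and Camp (limma adjusted p = 0.0804 and 0.106) and Ltf (0.0591 and 0.116) did not pass. The part of these cells in the Slfn3 and Slfn4 signal, or in that of any other member, was not tested.

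Among the long forms, Slfn9 had the clearest difference of the family. Its probe set 1436472_at read 77.7 and 65.3 in the normal arrays and 357 and 319 in the tumour arrays. The groups lay far apart, with each tumour array over 4 times each normal array. The log2 difference was 2.24 ± 0.17 (SE, n = 2 arrays per group; 95% interval 1.86 to 2.63), with a limma adjusted p of 1.19e-05. It was 1.64 after spike scaling (limma adjusted p = 5.31e-05), and with the default prior it missed the threshold (0.0699). The second Slfn9 probe set (1458803_at) read 29.3 and 22.5 against 27 and 45.4, overlapping between groups, with a log2 difference of 0.45 (95% interval -0.49 to 1.38; limma adjusted p = 0.534). The intervals of the 2 Slfn9 probe sets did not overlap, so they disagree on the size of the change. Where their probes lie on the transcript was not analysed here.

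Slfn8, another long form, did not pass. Its probe set (1451655_at) read 117 and 124 in the normal arrays and 131 and 135 in the tumour arrays. These values did not overlap between groups, yet the log2 difference of 0.15 ± 0.17 (SE, n = 2 arrays per group) did not pass (limma adjusted p = 0.635). Its 95% interval of -0.24 to 0.53 excludes a rise of the size measured for Slfn9 on 1436472_at. Within each array the ratio of this Slfn9 probe set to the Slfn8 probe set, which no scaling of arrays can alter, was 0.664 and 0.525 in the normal and 2.71 and 2.35 in the tumour arrays. The ratio thus differed 4.28-fold between the groups. The exact two-sided permutation test over 4 arrays gives p = 0.333, the smallest it can give with 2 against 2. Levels of different probe sets cannot be compared with each other, so only the change of the ratio has meaning. The same ratio for Slfn2 over Slfn8 was 14.7 and 13.98 against 21.3 and 20.5, a 1.45-fold difference (exact permutation p = 0.333), and for Slfn9 over Slfn2 it differed 2.94-fold (exact permutation p = 0.333). The printed upstream sequences of Slfn8 and Slfn9 share the marked match, and the Slfn2 window has none. Whether these letters have a part in the changes was not tested.

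Slfn5 is induced by interferon. Its 3 probe sets gave different readings. Probe set 1456288_at read 27.7 and 26.4 in the normal arrays and 55.6 and 52.6 in the tumour arrays. These groups were well apart, and the log2 difference of 1.00 ± 0.32 (SE, n = 2 arrays per group; 95% interval 0.28 to 1.71) fell just short of the threshold (limma adjusted p = 0.0504). It passed with array medians subtracted (0.0492), with an offset of 16 (0.0438), with dim probe sets left out (0.0320 and 0.0242 at the 30th and 50th percentile) and with 1 probe set per gene (0.0416). It did not pass with the default prior (0.102) or with any 1 of the 4 arrays left out (0.106 to 0.175). After spike scaling the difference was 0.40 (limma adjusted p = 0.414).

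The remaining Slfn5 probe sets did not settle the direction. Probe set 1458458_at read 6.23 and 4.38, below background, in the normal arrays and 23.0 and 18.0 in the tumour arrays, at least 1.45-fold higher (limma adjusted p = 0.120). Probe set 1442640_at read 29.6 and 29.7 against 30.4 and 17.7, with overlapping groups and a log2 difference of -0.35 (95% interval -1.34 to 0.64; limma adjusted p = 0.658). That negative value rests on tumour replicate 2, without which it was 0.037.

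**Figure D2:**
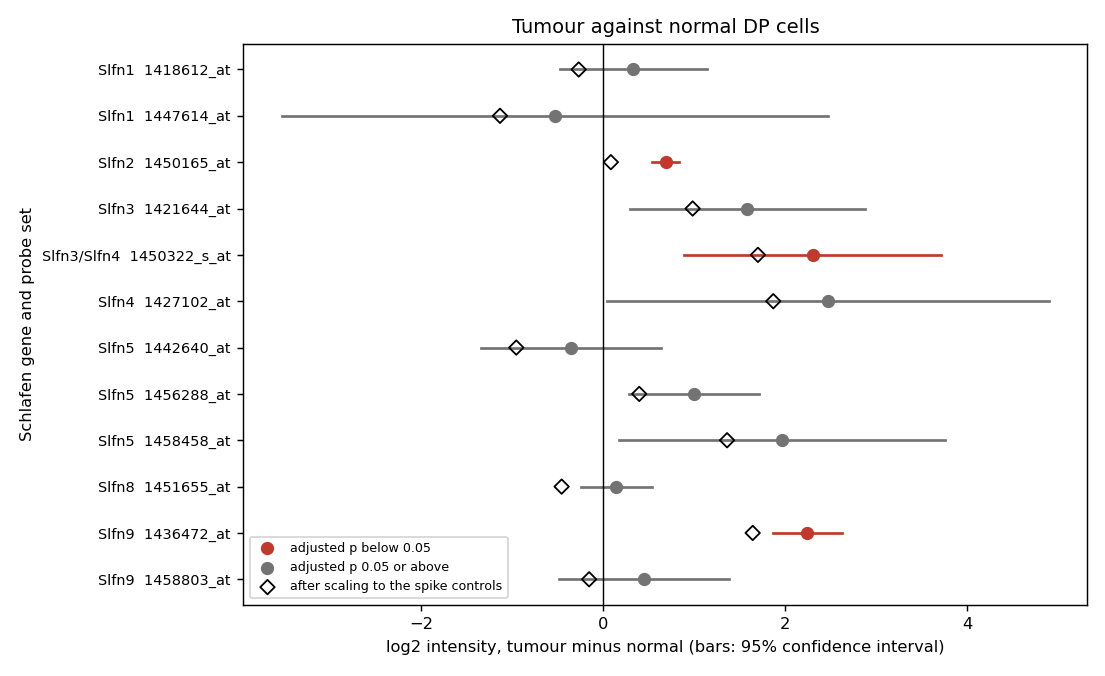
Log2 difference (tumour minus normal) of each Schlafen probe set, with 95% confidence intervals from limma. Red marks an adjusted p below 0.05 and grey the rest, and open diamonds give the difference after scaling to the spike controls. Slfn9 on 1436472_at (2.24), the probe set of Slfn3 and Slfn4 (2.30) and Slfn2 (0.69) pass, and after spike scaling the first of these alone does.

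The 7 genes form a cluster on chromosome 11, in the order Slfn5, Slfn9, Slfn8, Slfn2, Slfn1, Slfn4, Slfn3 in the RefSeq table, with the pseudogene Slfn10-ps between Slfn8 and Slfn2. Slfn10-ps read 54.3 and 63.5 in the normal and 75.0 and 71.6 in the tumour arrays and did not pass (log2 difference 0.32, limma adjusted p = 0.429). The antisense RNA Slfn5os lay at or below background on all arrays. AI662270, a long non-coding RNA beside Slfn3, read 1346 and 1481 in the normal and 2709 and 2608 in the tumour arrays, a rise of 0.91 ± 0.078 (SE, n = 2 arrays per group; limma adjusted p = 2.45e-05), and 0.31 after spike scaling (0.0174). Slfn14 had no probe set of its own in the platform annotation and was not analysed here.

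The 10 nearest measured genes outside the cluster, 5 on each side, had a median log2 difference of 0.01. Of these, 1 rose and 2 fell. Nle1, a ribosome assembly factor, rose by 1.27 ± 0.29 (limma adjusted p = 0.00954, n = 2 arrays per group). Ap2b1, a clathrin adaptor subunit, fell by 0.40 on the log2 scale (limma adjusted p = 0.0197) and Taf15, an RNA-binding protein, fell by 0.79 (0.00768). Nle1 did not pass after spike scaling (0.67, limma adjusted p = 0.116) or without normal replicate 2 (0.0709) or tumour replicate 2 (0.0615). Taf15 lost its call without normal replicate 1 (0.100) or tumour replicate 1 (0.0707), and Ap2b1 without normal replicate 1 (0.150), tumour replicate 1 (0.0630) or tumour replicate 2 (0.158). Genes that passed and genes that did not thus lay next to each other both within the cluster and around it. For genes near background, the lack of a call does not show that they were unchanged.

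**Figure D3:**
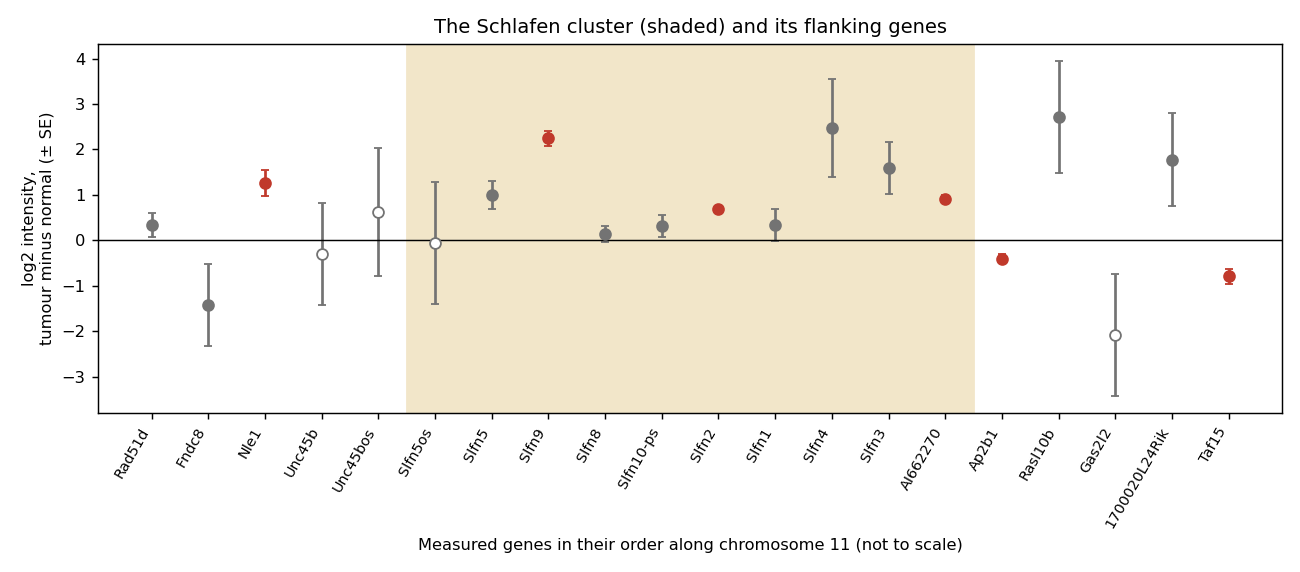
Log2 difference (tumour minus normal, ± SE) of the measured genes in and around the Schlafen cluster, in their order along chromosome 11 and not to scale, 1 probe set (highest mean) per gene. Red marks an adjusted p below 0.05, open circles genes at or below background on all arrays, and the shaded part is the cluster, in which Slfn9 (2.24), Slfn2 (0.69) and AI662270 (0.91) pass.

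Other interferon-stimulated genes were set beside the family, since several Schlafen genes respond to interferon. Each gene was read on its probe set with the highest mean, and over all 18193 genes so read 16.3% were higher and 11.7% lower. Of 28 measured interferon-stimulated genes, 10 rose and 0 fell (limma; 11 and 1 at an unadjusted p below 0.05), with a median log2 difference of 0.52, against 0.09 over all genes. The genes that rose most were Gbp3, a guanylate-binding protein (2.57), Oas1a, an oligoadenylate synthetase (1.81), Rsad2, the antiviral enzyme viperin (1.72), and Ifih1, a sensor of double-stranded RNA (1.64). Ifit1 (-0.06) and Irf7 (0.06) did not pass. After spike scaling 8 rose and 3 fell, and Oas1a did not pass (limma adjusted p = 0.0541). Oas1a also lost its call without tumour replicate 1 (0.104) or tumour replicate 2 (0.0974), and Gbp3 without tumour replicate 2 (0.0713) and with the replicate block (0.383). Without tumour replicate 1, 1 gene of the list fell.

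Genes of the interferon signalling chain moved both ways. Of 13 measured, 4 rose and 5 fell. Socs3, a feedback inhibitor of cytokine signalling, rose by 2.68 and the transcription factor Irf1 by 1.62 (log2), whereas the kinase Jak1 fell by 1.60 and the inhibitor Socs1 fell by 1.38. With spike scaling 2 rose and 7 fell.

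Genes of T-cell quiescence, the process for which Slfn2 is known, were likewise mixed. Of 21 measured quiescence and naive-cell genes, 5 rose and 6 fell, with a median of -0.15. Klf2, a transcription factor of quiescent T cells, read 63.8 and 78.2 in the normal arrays and 570 and 611 in the tumour arrays, a log2 difference of 3.06. The interleukin 7 receptor chain Il7r rose by 2.69, the egress receptor S1pr1 by 2.46 and the transcription factor Foxo1 by 1.45. Of the 6 that fell, Tob1 (-1.42) and Satb1 (-1.12) fell most. After spike scaling 4 of the list rose and 14 fell, and without tumour replicate 1 the number that fell was 3.

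Of 12 measured genes of transfer RNA cleavage and codon-level translation, a process in which some Schlafen proteins take part, 4 rose and 0 fell (limma; 5 and 1 at an unadjusted p below 0.05). Nsun2, a methyltransferase of transfer RNA, rose by 1.53, and Elac2, which trims its 3' end, rose by 1.45. Zfp598, a sensor of collided ribosomes, rose by 0.57 and the ribosome rescue factor Hbs1l by 0.46, and these were -0.03 and -0.14 after spike scaling, with 2 of the list higher and 3 lower. The number that rose was also 2 without normal replicate 1, tumour replicate 1 or tumour replicate 2, where Zfp598 and Hbs1l did not pass (limma adjusted p from 0.0581 to 0.104). Without tumour replicate 1, 1 fell.

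**Figure D4:**
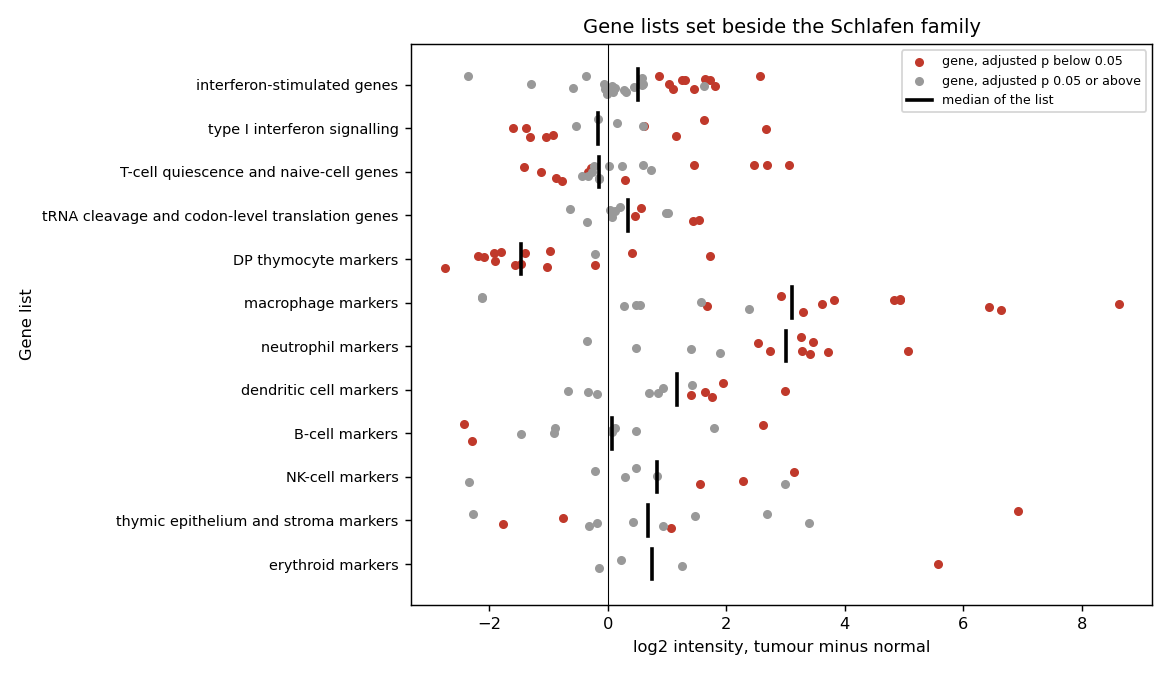
Log2 difference (tumour minus normal) of each measured gene in 12 lists, 1 probe set (highest mean) per gene, with red for an adjusted p below 0.05, grey for the rest and a black bar at the median of the list. Interferon-stimulated genes have a median of 0.52, macrophage markers of 3.10 and DP thymocyte markers of -1.46.

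Markers of further cell types were measured beside these values. Of 12 dendritic cell markers 5 rose and 0 fell (5 and 0 at an unadjusted p below 0.05). Their summed intensities were 311 and 298 in the normal and 1012 and 1306 in the tumour arrays (250 and 226 against 586 and 660 without H2-Aa). The 5 that rose were Itgax, H2-Aa, H2-Ab1, H2-Eb1 and Cd74. Flt3, Zbtb46, Xcr1, Siglech, Cd209a and Batf3 did not pass, and Ciita lay at or below background on all arrays. Among 9 NK-cell markers 3 rose and 0 fell (5 and 0 at an unadjusted p below 0.05), with sums of 1206 and 1166 against 5447 and 5476, mostly from Gzma (172 and 132 against 417 and 435 without it), and Ncr1, Klre1 and Klra8 lay at or below background on all arrays. Of 11 B-cell markers 1 rose and 2 fell, with sums of 602 and 506 against 266 and 258 that overlapped without Cd79b (281 and 212 against 214 and 194), and Cd79a, Pax5, Fcer2a and Cr2 lay at or below background on all arrays. Of 12 markers of thymic epithelium and stroma 2 rose and 2 fell, with sums of 724 and 620 against 3537 and 3962 and with Psmb11, Aire and Col1a1 at or below background on all arrays. Pdgfrb alone carried the higher sum, and without it the sums were 696 and 595 against 515 and 523. With any 1 of the 4 arrays left out, 1 rose and 1 fell. Of 4 erythroid markers 1 rose and 0 fell (1 and 0 at an unadjusted p below 0.05), with sums of 27.4 and 14.9 against 97.6 and 141, and Hba-a1 and Epb42 lay at or below background on all arrays. Alas2 made up most of the erythroid sum in the tumour arrays only, and without it the sums overlapped (25.1 and 13.6 against 23.1 and 46.9). Their part in the Schlafen values was not tested.

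For the pair of family members with the highest mean signal, the genes with the most similar readings over the 4 arrays were sought among 6362 genes whose mean log2 intensity reached 7. The measure was the Euclidean distance between log2 values centred on their own mean. Nearest to Slfn2 were Pdxk (distance 0.00859), Ywhae (0.0197) and Ndufa2 (0.0288), with log2 differences of 0.69, 0.67 and 0.66, which like that of Slfn2 did not pass after spike scaling. Nearest to Slfn9 were Rps25 (0.0489), Spats2 (0.0920) and Atad3a (0.136), with log2 differences of 2.23, 2.28 and 2.35. With 4 arrays in 2 groups, a small distance mostly reflects an equal difference between the groups.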

How the data were processed

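DP-cell RNA was labelled with a 3' in vitro transcription kit, per the labels' protocols. The authors deposited an intensity for each of 45101 probe sets on each of 4 arrays. The submitters' processing notes name RMA and no version. No source states the scale, which was read as linear because the largest values are far too high for a log scale. Some values lie below 1, which RMA rarely gives, and the method behind the deposited values is therefore uncertain. The arrays share nearly the same distribution, and such normalization hides a shift common to all genes. Values were turned to log2 without offset or filter, and 64 control probe sets were left out.

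Genes were named from the platform annotation. Tumour and normal arrays were compared with limma 3.58.1 in R 4.3.3 (lmFit, then eBayes with trend and robust prior) over 45037 probe sets, at an adjusted p of 0.05. The prior follows the level because the median replicate SD (log2) was 1.31 in the dimmest 25% of probe sets and 0.102 in the brightest 25%. Where a whole group was not above background, a fold is given as "at least", with each dim array raised to its background level. An adjusted p beside such a fold tests the log2 of the deposited values, not the bound. Spike scaling uses 14 BioB, BioC and BioD controls.

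Members, lists and tests were chosen with earlier results of these data known. By rule the text names all members, up to 4 called genes of largest change per list, the genes nearest in pattern and those flanking the cluster. Markers of the last paragraph on cell types are given mostly by their sums and by those at background. Ifit1, Irf7, Tob1, Satb1, Ptcra, Tcf12 and the dendritic cell markers other than Ciita and H2-Aa were named after their values were seen. Alternatives are given in the closing section.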

Additional observations from a re-analysis of the deposited data

How the results depend on the processing

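Over all probe sets, 5084 were higher and 5189 lower in the main design. The default prior gave 0 and 0 (11337 at an unadjusted p below 0.05), with 0 Schlafen probe sets in place of 3. Spike scaling gave 2074 higher and 11539 lower, so that 15.2% of the called were higher against 49.5%, and 1 Schlafen probe set. With 1 probe set per gene, 3156 were higher and 2251 lower, or 759 and 401 with the default prior, an alternative added after seeing the data. There fewer features were tested. Leaving out 1 array gave 3325 to 3983 higher and 3184 to 4386 lower, with 2 to 3 Schlafen probe sets higher. The replicate block gave 6125 higher, 6319 lower and 4 Schlafen probe sets, with Slfn5 on 1456288_at added (limma adjusted p = 0.0445). With it Gbp3 lost its call (limma adjusted p = 0.383). No label ties same-numbered arrays to each other, and their deviations correlated at r = 0.013 over all probe sets and 0.25 over the 10772 with a mean log2 of at least 7. Under every setting run, 0 Schlafen probe sets were called lower. In the main design 11.5% of all probe sets were lower, and 2 of the 12 Schlafen differences were negative. The default prior called 0 of all probe sets, so its 0 says nothing about the family.

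Of 165 member values under these alternatives, 143 kept direction and side of the threshold, 10 lost the call, 7 gained it and 5 changed sign. In the main design 9 of the 12 probe sets were not called, and staying uncalled counts as kept. The 10 losses all fell on the 3 called probe sets, so the 143 do not measure how stable the calls were. After spike scaling Slfn1 on 1418612_at was at -0.27, Slfn8 at -0.46, Slfn9 on 1458803_at at -0.15, Slfn10-ps at -0.28, Hbs1l at -0.14 and Zfp598 at -0.033, as that scaling subtracts the same amount from every probe set. Leaving out 1 array moved Slfn5 on 1442640_at between -0.74 and 0.037 and Slfn1 on 1447614_at between -1.98 and 0.92, with the positive values without tumour replicate 2. None of these values passed. At a threshold of 0.01 the probe set of Slfn3 and Slfn4 was not called. Signal near background limits Slfn1, Slfn3, Slfn4 and Slfn5. Why the other settings moved the counts was not tested.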
